A study of Mus musculus with 2 samples.

Results

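The sites described here are the peaks of HA-tagged Rfx6 that lay between genes and away from transcript starts in Min6b1, an insulin-secreting line derived from mouse β cells. The place of a peak was taken from its summit, where its signal was highest. It was kept when the summit was outside every protein-coding gene body and more than 10 kb but at most 100 kb from the nearest start of a protein-coding transcript. Of 23308 peaks, 4931 (21.2%) met this rule and are called distal peaks below. Coordinates are those of the mouse genome build NCBIM37 (mm9), and genes are those of GENCODE release M1.

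The 3HA-Rfx6 sample was Min6b1 cells transfected with the plasmid pCMV-Tag2A-3HA-Rfx6, in which bound DNA was precipitated with the anti-HA antibody 12CA5 and sequenced (ChIP-seq). The control was precipitated with the same antibody and is labelled only as Min6b1 cells, although the growth text of both samples is the same and describes the transfection. Both were grown in medium with 25 mM glucose. There was 1 library of each, so no value below has a replicate error, and the control entered only through the authors' peak calling. After removal of duplicates, 33949757 reads of the 3HA-Rfx6 library and 3567375 of the control remained. The tagged protein came from a transfected plasmid, so binding of the endogenous Rfx6 was not measured. A peak list holds no expression values, so the cell type could not be checked against its markers.

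Rfx6 is a winged-helix transcription factor of the RFX family and is required for the formation and function of islet cells. RFX proteins bind the X-box, in which 2 short arms face each other as inverted repeats across a spacer. Many sequences that control a gene lie far from its start, as enhancers between genes, and a peak at such a site does not tell which gene it acts on. The nearest gene is therefore used below only to name a place.

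The following sequences show what lay under the highest distal peaks. They cover the summit and 50 bases on either side of it, on the plus strand of NCBIM37. The first 5 are among the distal peaks of highest fold enrichment with a strict X-box within 50 bp of the summit. Only the strict X-box nearest to the summit is in capitals. The Tbx19 sequence holds the same X-box again, further to the left, in lower case. A strict X-box was a left arm of G, T, any base, a purine, C and C, then 0 to 3 bases, then a right arm of a purine, G, a pyrimidine, A, A and C, on either strand.
Ndufa12, chr10:93693427-93693527: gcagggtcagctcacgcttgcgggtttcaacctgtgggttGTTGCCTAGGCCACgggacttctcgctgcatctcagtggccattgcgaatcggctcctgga
Fosb, chr7:19905476-19905576: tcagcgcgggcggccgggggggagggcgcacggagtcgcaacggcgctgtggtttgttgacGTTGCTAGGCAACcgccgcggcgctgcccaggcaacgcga
Krt18, chr15:101848487-101848587: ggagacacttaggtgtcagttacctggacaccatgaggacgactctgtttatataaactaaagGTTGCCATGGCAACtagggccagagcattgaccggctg
Cacna2d1, chr5:15356116-15356216: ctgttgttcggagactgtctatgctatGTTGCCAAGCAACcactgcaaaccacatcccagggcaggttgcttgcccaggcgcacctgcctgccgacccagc
Tbx19, chr1:167039426-167039526: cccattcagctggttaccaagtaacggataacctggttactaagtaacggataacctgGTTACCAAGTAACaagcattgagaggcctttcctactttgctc
The next pair are the distal peaks of highest fold enrichment with neither a strict X-box nor a relaxed one, and nothing in them is in capitals.
Bdkrb2, chr12:106782659-106782759: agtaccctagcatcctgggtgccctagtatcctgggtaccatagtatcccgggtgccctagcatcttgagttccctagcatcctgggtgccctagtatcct
C130026L21Rik, chr5:112103441-112103541: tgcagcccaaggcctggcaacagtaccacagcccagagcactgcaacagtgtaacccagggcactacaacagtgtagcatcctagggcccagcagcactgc
The last is the distal peak of highest fold enrichment in which the X-box most frequent in these peaks lay 36 bp from another strict X-box. It was chosen after the grouping of X-boxes described below had been seen, and its 187 bases hold 3 strict X-boxes, in capitals.
Sez6l, chr5:113074591-113074777: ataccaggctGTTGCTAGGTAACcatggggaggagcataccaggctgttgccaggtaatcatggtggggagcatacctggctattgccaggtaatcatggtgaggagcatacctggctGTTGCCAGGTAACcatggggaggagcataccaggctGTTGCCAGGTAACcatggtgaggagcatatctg

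The peaks behind these sequences were among the highest of the whole list. The Bdkrb2 peak, upstream of a bradykinin receptor gene, held 1157 reads at a fold enrichment of 88.2, and only 0.00858% of all peaks had a fold enrichment as high. The Ndufa12 peak (376 reads, fold enrichment 68.3) lay 31.8 kb downstream of the start of a gene for a subunit of mitochondrial complex I.

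The other peaks shown held fewer reads than the Bdkrb2 peak. The Fosb peak, 10.1 kb upstream of the gene for a subunit of the factor AP-1, held 402 reads at a fold enrichment of 64.5. The Krt18 peak, between the neighbouring keratin genes Krt8 and Krt18, held 227 reads at 45.4. The Cacna2d1 peak, 84.3 kb upstream of the gene for an auxiliary subunit of voltage-gated calcium channels, held 266 reads at 44.9. Their X-boxes differed from one another, with 1 base between the arms at Fosb and Cacna2d1 and 2 bases at Krt18. The Tbx19 peak, 44.4 kb downstream of the start of a T-box factor gene, held 220 reads at 43.6, the peak nearest to C130026L21Rik held 454 reads at 67.3, and the Sez6l peak held 258 reads at 42.8.

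By their height the distal peaks were much like the rest of the list. They held a median of 70 reads (quartiles 50 and 109, range 26 to 1157), and all peaks held a median of 73. Fold enrichment compares a peak with the background expected by the peak caller, and its median was 8.71 (quartiles 6.36 and 13.2), against 8.54 over all peaks. Introns more than 10 kb from a start had medians of 69 reads and 8.47, and summits within 1 kb of a start had medians of 82 reads and 8.94. The distal peaks were less often among the peaks with the most reads than promoter peaks, and about as often as the classes most like them. Of them, 8.13% (95% Wilson interval 7.40 to 8.93%) were in the 10% of all peaks with the most reads, against 13.7% (12.8 to 14.7%) of the summits within 1 kb of a start, 8.51% (7.82 to 9.25%) in introns beyond 10 kb and 7.76% (6.57 to 9.15%) between genes beyond 100 kb. For fold enrichment the shares were 9.51% (8.72 to 10.4%) of distal peaks and 12.0% (11.1 to 12.9%) of promoter peaks. The intervals cover counting error only, as peaks of 1 library are not replicates.

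The distal peaks differed from promoters in base composition. The 200 bp around their summits had a median GC content of 52.5%, against 47% in the windows 1 kb to either side and 64.5% at summits within 1 kb of a start. The ratio of observed to expected CpG had a median of 0.183 in distal peaks and 0.706 near starts. Their median length was 1171 bp, their median score, on MACS's scale of -10 times the log10 p-value, was 141.5, and their median FDR was 2.98%. Several of the highest peaks had a higher FDR. It was 25.29% at the Bdkrb2, C130026L21Rik and Gpr141 peaks, 18.03% at the Ndufa12 peak and 0 at the Fosb peak, so a low FDR does not pick out the highest distal peaks.

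Peaks were thinly spread over the sequence that the rule covers. This sequence amounts to 602.7 Mb, or 23.6% of the sequenced bases of chromosomes 1 to 19 and X, and held 8.18 peaks per Mb. The density was 83.2 peaks per Mb within 1 kb of a start, 10.6 between genes at 1 to 10 kb, 8.65 in introns beyond 10 kb and 2.12 between genes beyond 100 kb. The distal sequence was thus close to distal introns in density and well above the sequence farther from genes.

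**Figure D1:**
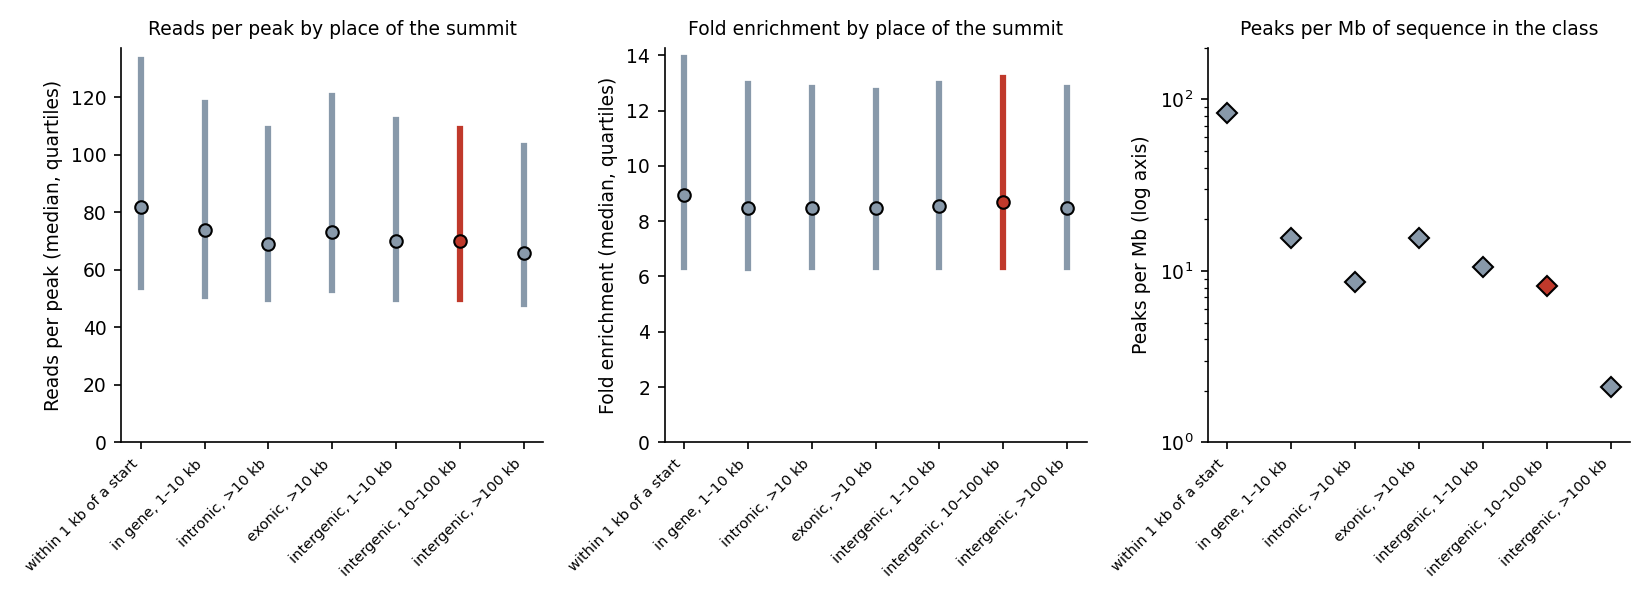
Reads per peak and fold enrichment (points, median; bars, quartiles) and peaks per Mb on a log axis, for peaks grouped by the place of the summit; kb values on the axis are distances to the nearest protein-coding start. Distal peaks, in red, had medians of 70 reads and 8.71, within the narrow range of the other classes, whereas the density fell from 83.2 to 2.12 peaks per Mb.

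Within the distal sequence, the density fell with the distance from the start while the height of the peaks did not. There were 9.58 peaks per Mb at 10 to 20 kb and 5.15 at 90 to 100 kb. The median fold enrichment was between 8.36 and 9.18 in each of the 10 kb bins. Across the 4931 sites, Spearman's rho was 0.008 between distance and fold enrichment and -0.006 between distance and reads, given as a description of sites that share 1 library. The side of the start made little difference, as 61.7% (60.3 to 63.0%) of distal peaks and 62.4% of the distal sequence were upstream of the nearest start.

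**Figure D2:**
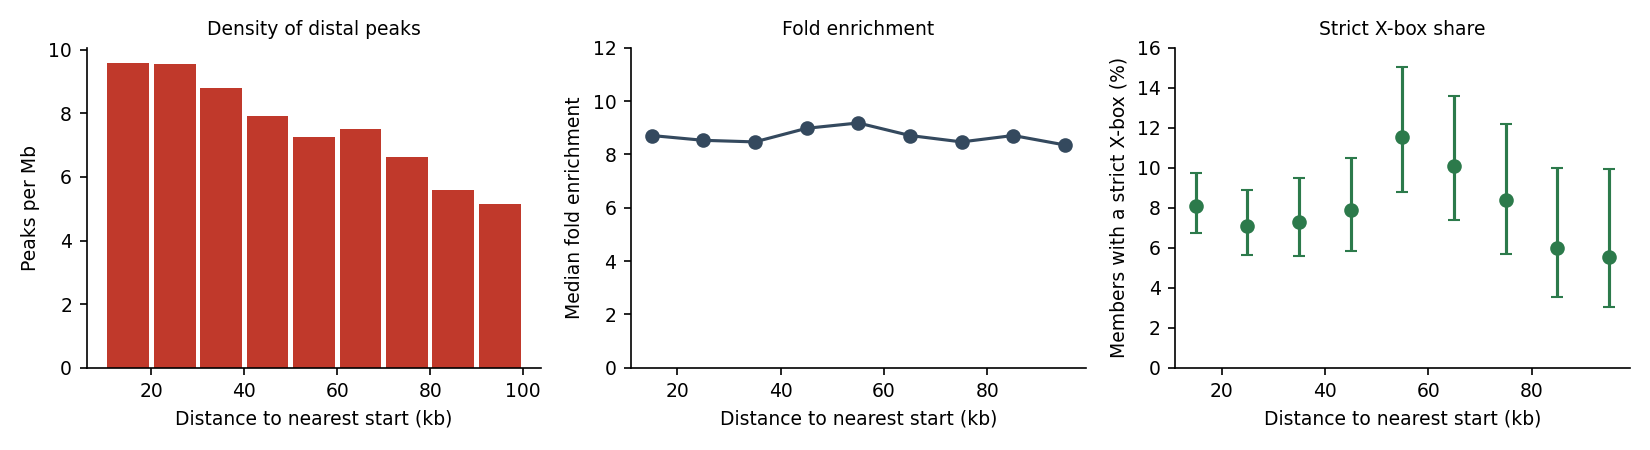
Peaks per Mb, median fold enrichment and share of distal peaks with a strict X-box (bars, 95% Wilson intervals) in 10 kb bins of distance to the nearest protein-coding start. The density fell from 9.58 to 5.15 peaks per Mb, the median fold enrichment remained between 8.36 and 9.18, and the X-box share was highest, at 11.5%, at 50 to 60 kb.

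The members at the limits of the rule were ordinary peaks. Just above 10 kb the nearest was at 10003 bp from the start of L1cam with 69 reads, and just inside that limit, so not a member, one lay at 9994 bp from Zfp90 with 119 reads. At the upper limit the last member was at 99909 bp from Slc38a2 with 47 reads, and the first peak beyond it at 100017 bp from Lpl with 56 reads.

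Chromosomes differed widely. The density of distal peaks was highest on chromosome 11, at 14.2 per Mb of distal sequence, and among the autosomes lowest on chromosome 3, at 5.73. The X chromosome had 58 distal peaks, or 1.17 per Mb, against 8.81 on the autosomes. Their median fold enrichment was 8.59 and their median was 57.5 reads. The differences were not particular to the distal peaks. Over all peaks and all sequence the density was 16.3 per Mb on chromosome 11, 5.61 on chromosome 3 and 1.07 on the X chromosome. The copy number of the X chromosome in these cells was not measured here.

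Some distal peaks lay in or near non-coding genes of the annotation, so that they are intergenic only with regard to protein-coding genes. The summit was in the body of a non-coding gene or pseudogene in 281 (5.70%), among them 129 in lincRNA genes and 141 in genes of processed transcripts. A further measure, the distance to a non-coding start, was at most 1 kb in 116 (2.35%). These 116 had a median of 81 reads and a median fold enrichment of 9.18, and 12.1% held a strict X-box.

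X-boxes were far more frequent at the distal summits than beside them. In the 200 bp around the summit, 396 distal peaks (8.03%, 7.31 to 8.82%) held a strict X-box, against 15 (0.304%) in windows 1 kb to the right and 18 (0.365%) in windows 1 kb to the left. The share was 6.42% (6.12 to 6.74%) over all peaks, 5.75% (5.14 to 6.44%) within 1 kb of a start, 6.48% (5.88 to 7.13%) in introns beyond 10 kb and 7.58% (6.40 to 8.96%) between genes beyond 100 kb. The interval of the distal peaks did not overlap those of promoters and distal introns, a difference that depended on a single X-box sequence, as described below. Nor did it overlap those between genes at 1 to 10 kb (5.75%, 4.75 to 6.94%) and in genes at 1 to 10 kb (5.18%, 4.51 to 5.96%). A relaxed X-box, with mostly less constrained arms, was present in 48.9% of distal peaks and in 22.3% of windows to the right. It does not take in every strict X-box, as 58 distal peaks held only the strict form. Neither form was present in 2462 distal peaks (49.9%). The absence of these letters from the window says nothing about how the protein was held there.

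**Figure D3:**
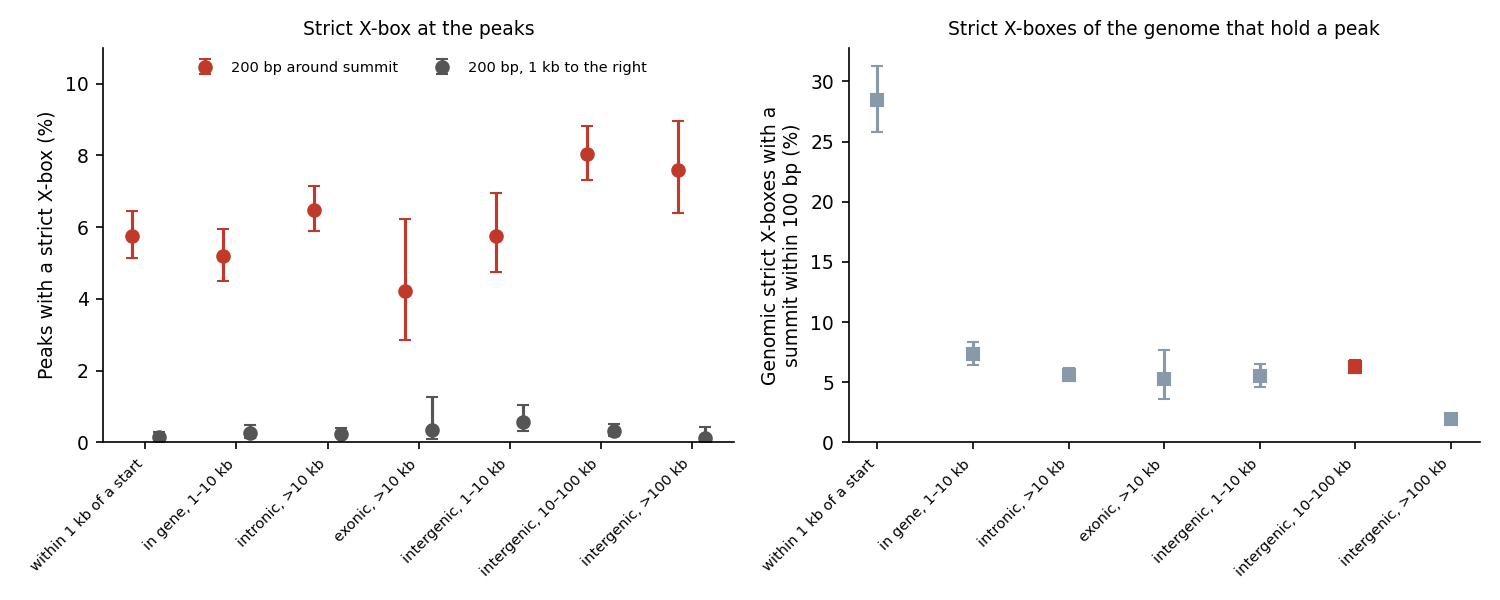
Left, share of peaks with a strict X-box in the 200 bp around the summit (red) and in windows 1 kb to the right (grey). Right, share of the strict X-boxes of the genome that had a summit within 100 bp, by class, with distal sequence in red. Bars are 95% Wilson intervals; distal peaks held an X-box in 8.03%, and 6.29% of the X-boxes of distal sequence had a summit, against 28.5% near starts.

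The X-boxes lay close to the summits and went with a higher fold enrichment. The median distance between the summit and the centre of the nearest strict X-box was 20.5 bp, and 57.6% (52.7 to 62.3%) lay within 25 bp, a stretch that takes up 25% of the window. A strict X-box was found in 4.76% (3.60 to 6.28%) of the 20% of distal peaks with the lowest fold enrichment, and in 10.9% (9.06 to 12.9%) of the 20% with the highest. The 3 steps between gave 6.19%, 8.22% and 10.1%, so the share rose at each step. Peaks with an X-box had a median fold enrichment of 10.3 and those without of 8.47. In reads the medians were 74 and 70, so the difference was larger in fold enrichment than in reads. By score the share changed little. It was 8.4% in the distal peaks among the 50% of all peaks with the highest scores, against 8.03% of all distal peaks.

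The arms and the spacer of these X-boxes were not evenly used. One base separated the arms in 58.6% and 2 bases in 35.1% of the 396 peaks, whereas 0 bases (1.77%) and 3 bases (4.55%) were rare. The arm GTTGCC made up 39.9% of all arms, GTTACC 19.7% and GTTGCT 18.4%. There were 148 distinct X-box sequences, of which 94 were seen in a single peak.

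Most X-boxes of the distal sequence had no peak. A search of this sequence found 7714 strict X-boxes, and 485 of them (6.29%, 5.77 to 6.85%) had a summit within 100 bp. The share was 28.5% (25.8 to 31.3%) within 1 kb of a start, 5.63% (5.14 to 6.17%) in introns beyond 10 kb and 1.95% (1.66 to 2.30%) between genes beyond 100 kb. It varied with the spacer in the same way as the peaks did, from 1.05% (0.533 to 2.06%) with no base between the arms to 9.75% (8.76 to 10.8%) with 1 base, 6.10% (5.23 to 7.11%) with 2 and 1.57% (1.03 to 2.39%) with 3. It was 3.24% (2.59 to 4.05%) with no arm GTTGCC or GTTACC, 5.56% (4.88 to 6.33%) with 1 such arm and 12.4% (10.8 to 14.1%) where both arms had one of these sequences. These arms were the most frequent in the distal peaks, so their choice is not independent of the summits counted here.

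Single sequences differed more. Those below were taken from the X-boxes seen in the most distal peaks, so they were picked for having summits, which can raise their shares. GTCGCCATGGCAAC had a summit at 9 of its 13 sites in distal sequence (69.2%, 42.4 to 87.3%), and GTTGCCTAGCAAC at 26 of 98 (26.5%, 18.8 to 36.0%). GTTGCCATGGCAAC, a full palindrome, had a summit at 12 of 66 sites (18.2%, 10.7 to 29.1%). In contrast, GTTACCTAGCAAC had 834 sites and a summit at 21 (2.52%, 1.65 to 3.82%).

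The X-box seen in the most distal peaks was GTTACCTGGCAAC, which was the nearest X-box in 66 peaks and present in 79 (1.60%, 1.29 to 1.99%). It was present in 4 of 4902 promoter peaks (0.0816%) and in 44 of 5912 peaks in introns beyond 10 kb (0.744%, 0.555 to 0.998%). Between genes beyond 100 kb it was present in 22 of 1649 (1.33%, 0.883 to 2.01%), an interval that overlaps that of the distal peaks. When windows with this sequence were not counted, a strict X-box was found in 6.43% (5.78 to 7.15%) of distal peaks. The share was then 5.67% (5.06 to 6.35%) of promoter peaks and 5.73% (5.17 to 6.36%) of peaks in distal introns, and these intervals overlapped. Between genes at 1 to 10 kb it was 5.06% (4.12 to 6.19%), which also overlapped that of the distal peaks. In genes at 1 to 10 kb it was 4.91% (4.25 to 5.66%), an interval that still lay below that of the distal peaks.

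This X-box and GTTACCTAGCAAC, from which it differs by the substitution G8A (its own base first, counted from 1 at its 5′ end), together made up much of the X-box sequence of the territory, with 945 and 834 of 7714 sites. The bases around them, more so around the former, were partly shared from site to site. The most frequent base at each of 30 positions on either side is shown.
GTTACCTGGCAAC, 106 sites with a summit: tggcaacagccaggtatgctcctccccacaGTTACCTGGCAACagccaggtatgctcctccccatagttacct
GTTACCTGGCAAC, 802 sites without: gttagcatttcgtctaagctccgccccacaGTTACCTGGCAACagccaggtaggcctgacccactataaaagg
GTTACCTAGCAAC, 794 sites without: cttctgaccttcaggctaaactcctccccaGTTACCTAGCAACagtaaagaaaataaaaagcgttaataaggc
These are composites of many places and lie at none in particular, with the X-box in capitals and the strand chosen so that it reads as named. Over the 908 sites of GTTACCTGGCAAC used for them, 25 of the 60 flanking positions had the same base in at least 70% of sites, against 12 of 60 over the 814 sites of GTTACCTAGCAAC. In the distal peaks the 10 nearest positions on either side of GTTACCTGGCAAC had a median share of 85.3% for the most frequent base, against 36% around GTTGCCTAGCAAC.

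Grouped X-boxes had a summit far more often than single ones. Of 289 strict X-boxes of distal sequence with another one within 100 bp, 148 had a summit (51.2%, 45.5 to 56.9%), against 337 of 7425 without (4.54%, 4.09 to 5.04%). The 289 are not independent, since neighbours can share a summit. Counted as places, 72 of 132 groups of 2 or more had a summit (54.5%, 46.0 to 62.8%), against 334 of 7414 single X-boxes (4.50%, 4.06 to 5.00%).

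This held for the repeated X-box and for the others. Of GTTACCTGGCAAC, 81 of 168 grouped sites had a summit (48.2%, 40.8 to 55.7%) and 29 of 777 single ones (3.73%, 2.61 to 5.31%). Of GTTACCTAGCAAC, 10 of 16 grouped sites (62.5%, 38.6 to 81.5%) and 11 of 818 single ones (1.34%, 0.753 to 2.39%) had one. For the remaining X-boxes the counts were 57 of 105 (54.3%, 44.8 to 63.5%) and 297 of 5830 (5.09%, 4.56 to 5.69%). Sites were sorted by their own sequence, so the neighbour of a remaining X-box could be the repeated one. Counted as places, 100 of the 132 groups held the repeated X-box, and 53 of these had a summit (53.0%, 43.3 to 62.5%). Of the 32 groups without it, 19 had one (59.4%, 42.3 to 74.5%). In 84.5% of the grouped sites of GTTACCTGGCAAC the next X-box was 36 bp away, as in the Sez6l sequence shown above. Reads from near-identical copies can be hard to place, and what part this has in the shares with a summit was not tested.

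**Figure D4:**
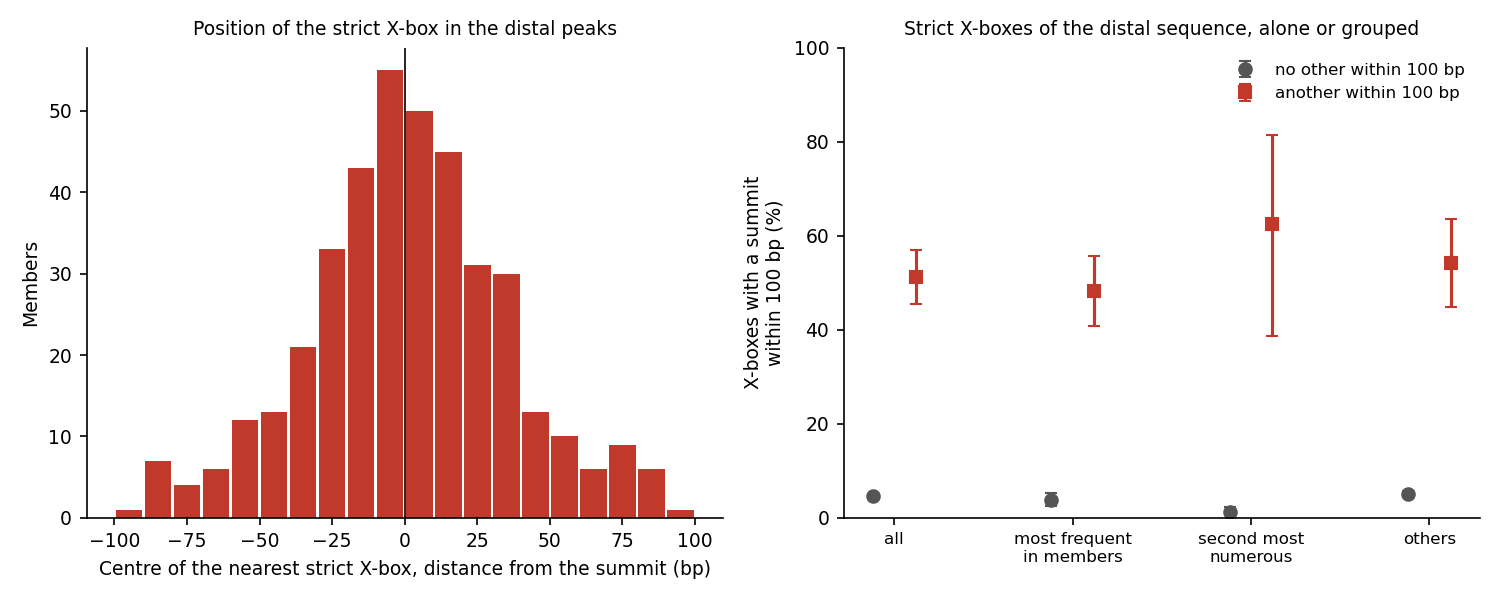
Left, number of distal peaks by the position of the nearest strict X-box centre relative to the summit, in 10 bp bins along the plus strand. Right, share of strict X-boxes in distal sequence with a summit within 100 bp, alone (grey circles) or with another strict X-box within 100 bp (red squares), with 95% Wilson intervals: 4.54% and 51.2% for all, and a like difference for each kind of X-box.

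More X-boxes in a window did not always go with a higher peak. The 325 distal peaks with 1 strict X-box had a median fold enrichment of 10.3 and the 65 with 2 had 9.89, and only the 6 with 3 or more had a higher one, 21.8. Of the 79 peaks with GTTACCTGGCAAC, 62.0% held 2 or more strict X-boxes, against 6.94% of the other peaks with an X-box, and their median fold enrichment was 9.65 and their median 64 reads.

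Repetition at a fixed period within the window marked some of the highest peaks. A window was called repeated when at least 70% of its bases matched those a fixed period of 10 to 60 bp further on. This was so in 84 distal peaks (1.70%, 1.38 to 2.10%) and in 0.831% and 0.730% of the windows to the right and left. Such windows were not particular to the distal peaks, since their share was 2.00% (1.67 to 2.39%) in introns beyond 10 kb, 2.73% (2.05 to 3.63%) between genes beyond 100 kb and 1.41% of all peaks. Among distal peaks the share was 4.46% (3.34 to 5.94%) in the 20% of distal peaks with the highest fold enrichment and between 0.710% and 1.52% in the 4 lower steps of the same size. The 84 had medians of 153.5 reads and a fold enrichment of 15.0, against 70 reads and 8.68 in the others, and 5 of them held a strict X-box.

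The Bdkrb2 window shown above was of this kind, with 84.7% of bases matching at a period of 17 bp. The Tpd52 window (295 reads, fold enrichment 56.7), upstream of the gene for tumour protein D52, matched in 73.2% at 51 bp. The C130026L21Rik window reached 63.6% at 49 bp and was below the limit. The number of copies of these repeats in Min6b1 cells was not measured.

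The 8-base words most in excess at the distal summits were X-box arms with their neighbours. GCGTTGCC was present in 1.01% of windows and in 0.0406% of those 1 kb to either side, and GTTGCTAG in 6.21% and 0.578%. All of the 10 words with the highest ratios held GTTGC or its reverse complement. The arm GTTGCC alone was present in 29.0% (27.8 to 30.3%) of distal summits and in a mean of 6.47% of the windows to either side, and in 23.2% (22.0 to 24.4%) of promoter summits.

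Letters bound by other factors changed much less between the summits and their sides. The E-box CAGNTG, bound by factors such as NeuroD1, was present in 55.4% (54.0 to 56.8%) of distal summits and 42.8% of side windows. TGCTGAC, bound by MAF factors, was present in 4.52% (3.98 to 5.14%) and 3.20%, and TGANTCA, bound by AP-1, in 6.83% (6.16 to 7.57%) and 5.64%. TGTTTAC, bound by FOXA factors, was present in 3.08% (2.64 to 3.60%) and 2.66%.

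Some words rich in A and T were fewer at the summits, which had the higher GC content. The FOXA word given above was not among them. TAATTA, bound by homeodomain factors, was present in 2.54% (2.13 to 3.01%) of distal summits and 4.47% of side windows. AGATAA, bound by GATA factors, was present in 6.65% (5.99 to 7.38%) and 9.27%, and CCAAT in 17.9% (16.9 to 19.02%) and 24.2%. The part of base composition in these differences was not tested.

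Letters common at promoters were far fewer at the distal summits, though above the side windows for the GC box and the ETS word. GGGCGG, the GC box, was present in 5.35% (4.76 to 6.02%) of distal summits, 3.43% of side windows and 34.0% (32.7 to 35.3%) of promoter summits. CCGGAA, bound by ETS factors, was present in 3.29% (2.82 to 3.82%), 2.24% and 11.3% (10.5 to 12.2%). TGACGTCA, the CRE, was present in 0.203% of distal summits and in 0.223% of side windows. GGAATG, bound by TEAD factors, was present in 9.80% of distal summits, 10.6% of side windows and 5.90% of promoter summits. The core motif of CTCF, the protein that bounds chromatin domains, was present in 1.72%, 1.98% and 1.55%. Neither was fewer at distal than at promoter summits. A match is a description of the letters and not of binding.

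Distal peaks had another summit nearby somewhat less often than peaks in general. Another summit of any class lay within 10 kb of 2097 distal peaks (42.5%, 41.2 to 43.9%), against 46.6% of all peaks. The share was 47.3% in introns beyond 10 kb, 61.6% between genes at 1 to 10 kb and 62.8% in genes at 1 to 10 kb. It was lower, at 38.3%, within 1 kb of a start and 27.7% between genes beyond 100 kb. When close distal peaks were joined into runs, 2114 (42.9%) were in runs of 2 or more, and 38 runs held 5 or more. Runs were made for distal peaks only, so their share has no comparison. The longest held 9 peaks each. One spanned 41.1 kb upstream of Ppara, the gene for a nuclear receptor of fatty acid metabolism, another 51.3 kb nearest to Actrt2 and Ttc34, and another 46.4 kb nearest to Cstad and Ier5l. The peaks of the Ppara run had 50 to 244 reads, and no peak in these 3 runs held a strict X-box.

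Single genes were nearest to as many as 12 distal peaks. Lingo1 (ENSMUSG00000049556.4), which encodes a neuronal receptor subunit and lies on chromosome 9 from 56466282 to 56533060, had 12 peaks of 40 to 237 reads, 7 of them upstream of its start and 5 downstream. Gm9867, an uncharacterised gene, also had 12, of 39 to 287 reads. Cryba4, the gene for a lens crystallin, had 11, all of them downstream of its start, and the highest held 182 reads.

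The other genes with the most distal peaks held both higher and lower sites. Gm11733, also uncharacterised, had 11 peaks of 45 to 413 reads, with fold enrichments of up to 45.9. Ppara (ENSMUSG00000022383.7) had 10, each of them upstream, at 10.3 to 65.2 kb. These 5 genes had between 0.0669 and 0.156 Mb of distal sequence nearest to them, or 76.8 to 149.5 peaks per Mb. They were chosen for these counts, which are a description.

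**Figure D5:**
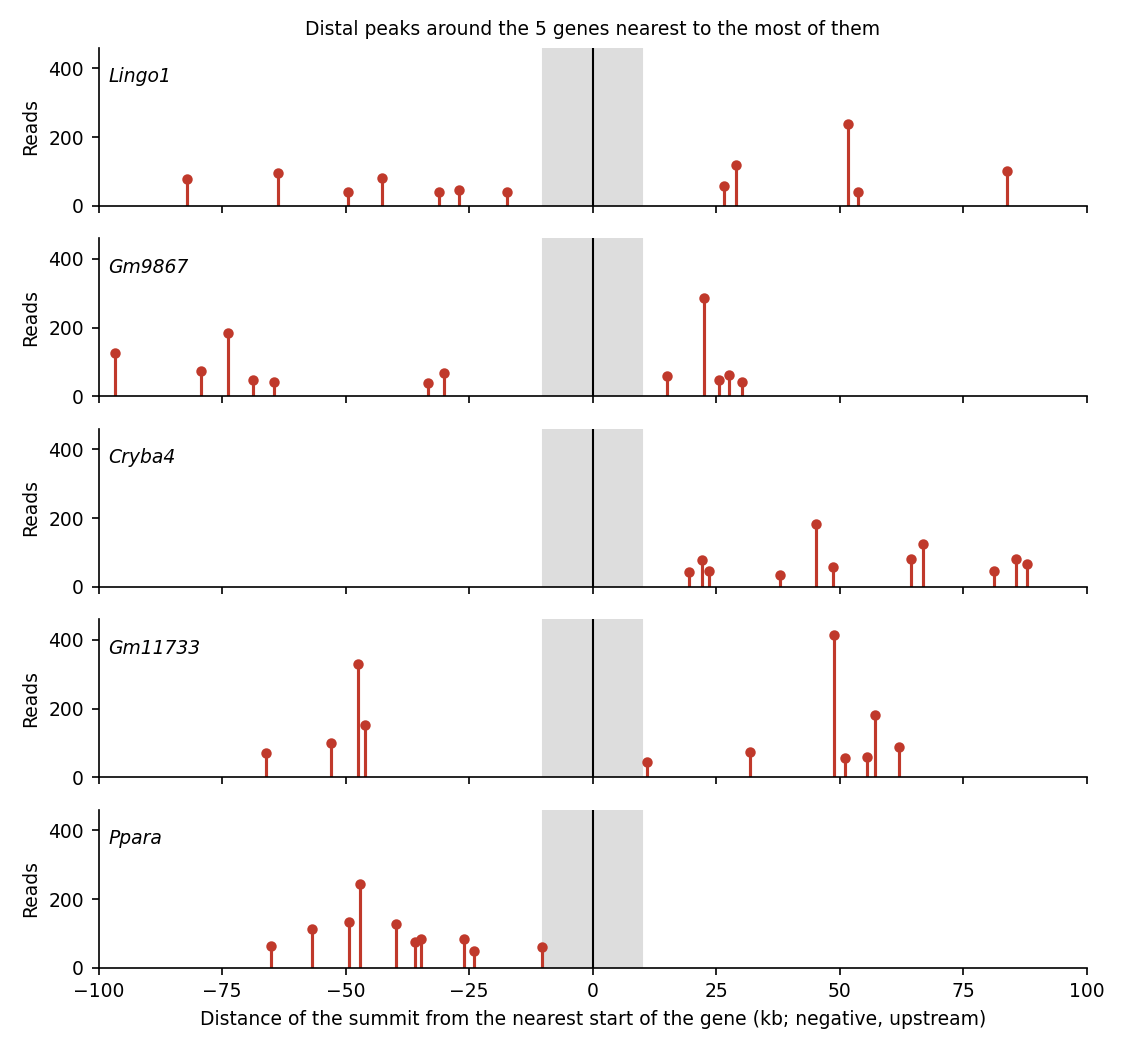
Reads of each distal peak (points) by its distance from the nearest start, in kb, for the 5 genes nearest to the most distal peaks; negative values are upstream and the grey band marks the 10 kb on either side that the rule leaves out. Peaks lay on both sides of Lingo1, Gm9867 and Gm11733, only upstream of Ppara and only downstream of Cryba4.

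The nearest start belonged to 1 of the 2 flanking genes for 98.1% of distal peaks. In all, 2924 of 22350 protein-coding genes had the nearest start of at least 1 distal peak, of which 1865 had 1, 581 had 2 and 478 had 3 or more. Most of these genes therefore had a single distal peak.

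Among genes of islet transcription factors, 10 of 30 were nearest to a distal peak (33.3%, 19.2 to 51.2%), against 13.1% of all protein-coding genes. Only 14816 of all protein-coding genes have distal sequence nearest to them, and 19.7% of these had a distal peak. In the islet factor list 29 genes have such sequence, and the share was 34.5%. The distal sequence nearest to a gene of this list had a median length of 71.05 kb, against 7.6 kb over all protein-coding genes. Per Mb of this sequence there were 10.5 peaks, against 8.18 over all genes. The peak with the most reads was nearest to Nkx6-1, a factor of β cell identity, with 183 reads and a fold enrichment of 16.6 at 76.2 kb downstream of its start, and the other Nkx6-1 peak held 75 reads at 4.67. Sox4, a factor of endocrine development, had 4 peaks, the highest with 132 reads at a fold enrichment of 24.7, above that of Nkx6-1, and the annotation has 2 records with this symbol. Nkx2-2 had 2 peaks and Gata4 had 4, and in both the highest held 123 reads.

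The rest of this list had lower peaks. Prox1, a homeodomain factor, had 1 of 116 reads. Hhex had 1 peak of 72 reads and Foxa2 had 3 of 47 to 59 reads. Onecut1 and Gata6 were also nearest to distal peaks, with at most 49 and 47 reads. Of the 24 peaks of this list 1 held a strict X-box, at Sox4, in a peak of 81 reads 21.0 kb upstream. Pdx1, Neurod1, Mafa, Pax6, Isl1 and Rfx6 itself were among the 20 genes nearest to no distal peak.

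Among genes of hormones and secretory granules, 7 of 30 were nearest to a distal peak (23.3%, 11.8 to 40.9%), against 13.1% of all protein-coding genes. There were 8.78 peaks per Mb of their distal sequence, against 8.18 over all genes. Syt7, a calcium sensor of granule exocytosis, had 5 peaks in a row upstream of its start, at 18.9 to 35.9 kb. The 5 held 200, 199, 176, 77 and 73 reads. Their fold enrichments were 24.3, 25.7, 26.8, 8.71 and 13.7, so the 3 nearest to the gene, at 18.9 to 26.4 kb, were the highest by either measure.

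Chga, the gene for the granule protein chromogranin A, had a peak of 173 reads that lay 0.693 kb from the neighbouring gene Itpk1. Its other distal peak, 22.2 kb upstream, held 95 reads at a fold enrichment of 18.8 and a strict X-box. Pcsk1, which encodes a proinsulin-cleaving convertase, had 1 peak of 83 reads, Chgb 1 of 81, and Snap25, a part of the exocytotic machinery, 2 of 78 and 38. Glp1r and Npy had 1 each, of 61 and 47 reads. Ins1, Ins2, Gcg and Sst were the nearest gene of no distal peak, and Iapp has no distal sequence nearest to it, so it could have none.

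Among genes of calcium and KATP channels, 7 of 15 were nearest to a distal peak (46.7%, 24.8 to 69.9%), against 13.1% of all protein-coding genes. Cacna1c, Cacna1d, Cacna1g and Cacnb1 have no distal sequence nearest to them, so they could have none. The list had 10 peaks in only 0.429 Mb of distal sequence, or 23.3 per Mb. The highest was the Cacna2d1 peak shown above with 266 reads, and a further one 35.4 kb upstream of this gene held 67 reads. Cacna1a, which encodes the pore of P/Q-type channels, had a peak of 152 reads 63.1 kb upstream and another of 72 reads with a strict X-box 58.7 kb upstream. These distances are to the nearest protein-coding transcript start, and the annotated gene body begins nearer, 36.1 and 31.8 kb from the summits.

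The remaining channel genes had peaks of at most 110 reads. That of Cacna1h, 15.7 kb upstream, held 110 reads, and Kcnj11, the pore of the KATP channel, had 1 of 87 reads, 15.4 kb downstream of its start and 0.656 kb from the end of the next gene. Cacna1e had 2 of 75 and 52 reads, Cacna2d2 1 of 75 and Cacnb2 1 of 61. The study reported ChIP-seq peaks in introns of Cacna1c, Cacnb2 and Abcc8, which lie outside the distal rule. The list was chosen with earlier results of these data known, so its count is not independent of them.

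Disallowed genes are expressed in most tissues and held low in β cells. Of the 11 that both earlier studies of such genes had in common, 3 were nearest to a distal peak (27.3%, 9.75 to 56.6%), against 13.1% of all protein-coding genes. There were 8.13 peaks per Mb, against 8.18 over all genes. Ldha, Oat, C1qbp and Cd302 have no distal sequence nearest to them, so they could have none. Slc16a1, which encodes a monocarboxylate transporter, had 4 peaks downstream of its start. They held 209, 140, 81 and 55 reads. Their fold enrichments were 35.1, 23.4, 5.18 and 7.06, so the first and second stood apart from the others. Igfbp4 had 1 peak of 268 reads at a fold enrichment of 24.5, and Smad3 had 1 of 113 reads.

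Genes of liver, muscle, acinar pancreas and blood were nearest to a distal peak about as often as genes in general. Of the 24 that were annotated, 3 were, and the interval of this share, 4.34 to 31.0%, holds the 13.1% of all protein-coding genes. They had 7.12 peaks per Mb. The 3 were Pnlip (130 reads), a pancreatic lipase gene, Tat (127 reads), a liver enzyme gene, and Ptf1a (126 and 46 reads), a factor of acinar cells. Among genes with distal sequence nearest to them, 19.7% of all protein-coding genes had a distal peak. The share was 30.4% of such granule genes, 63.6% of channel genes, 42.9% of disallowed genes and 17.65% of genes of other tissues. By peaks per Mb of distal sequence, the lists of islet factors, granule proteins, disallowed genes and other tissues lay between 7.12 and 10.5, near the 8.18 of all genes. The channel genes, at 23.3, rested on 10 peaks.

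Most of the distal peaks with many reads also had a high fold enrichment. Of the 401 among the 10% of all peaks with the most reads, 272 were also among the 10% with the highest fold enrichment. Some of the highest by reads were long. The peak 97.3 kb upstream of Gpr141, an orphan receptor gene, held 951 reads over 7428 bp, the longest of all peaks, at a fold enrichment of 20.01. The peak near Gm17421 and the immunoglobulin gene Ighg2c held 633 reads over 5289 bp at 17.7. That upstream of Prok2, which encodes the secreted prokineticin 2, held 548 reads at 29.6. None of these 3 held a strict X-box.

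Others of the 10 with the most reads held 522 to 526 reads. They were nearest to Tmem8c (526), D19Ertd386e (525), Banf2 (524) and Rasal1, a gene for a regulator of Ras (522). Others of the 10 with the highest fold enrichment were nearest to Spocd1 (507 reads, 57.4), Papss2 (300 reads, 56.7), which makes the sulfate donor of the cell, Tpd52 (given above), Tuba1a (317 reads, 56.2), a tubulin gene, and Aktip (267 reads, 53.9). Of the 10 with the highest fold enrichment, 3 held a strict X-box, Ndufa12 and Fosb among them, whereas of the 10 with the most reads 1 did.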

How the data were processed

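ChIP-seq of 3HA-Rfx6 and of the control (1 library each) was given. Per the submitters' processing notes the tools were CASAVA 1.8.2, Bowtie and MACS 1.4.2, and the build mm9. Reads were mapped by the authors, who ran MACS at a p-value cutoff of 1e-05, keeping 33949757 of 49443917 ChIP reads and 3567375 of 16911298 control reads. The deposited count is the number of ChIP reads per peak, without normalization. The deposited fold enrichment is a ratio to the expected background, which rests on the shallower control. The deposited score is on MACS's scale of -10 times the log10 p-value, and the deposited FDR is in percent. All of the above come from the file header or the labels.

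From the deposited list, summits (start + summit - 1) were placed on NCBIM37 and GENCODE M1, taking the protein-coding transcripts of protein-coding genes. Classes were set in order, summits within 1 kb of a start first. Territory was measured by applying the rule to every 100 bp of sequenced bases. Distal peaks with gaps of at most 12.5 kb made up a run. X-boxes and motifs were searched on both strands in 200 bp windows. The relaxed X-box was a purine, 2 pyrimidines, any base and 2 pyrimidines, then 1 to 3 bases, then 2 purines, any base, a purine, A and C. Intervals are 95% Wilson. No test was made, since peaks of 1 library are not replicates. Soft-masked repeats were not computed, as the genome used is not masked. Named genes were those nearest to the 10 distal peaks with the most reads, the 10 with the highest fold enrichment, the 5 genes nearest to the most, and at most 8 genes per list. Genes and sequences named beyond this rule (further list genes, Sez6l, X-box groups) were chosen after their values were seen. Sequences on chromosome 18 were not used, and some items that the rule names are not reported here. The peaks and gene lists were chosen with earlier results of these data known. Both steps were tested on simulated data: 100% of 400 X-boxes placed in random sequence and 100% of 2000 gene assignments were recovered. Software was matplotlib 3.10.9, pandas 2.3.3, numpy 2.4.6 and scipy 1.17.1 under Python 3.11.15. The alternatives were other gene sets, windows, limits and stricter peak sets.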

Additional observations from a re-analysis of the deposited data

How the results depend on the processing

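No paired analysis was possible because a single library stood for each condition, which also left no replicate to omit. The number of distal peaks, 4931, was 3636 to 5767 with other lower limits, the peak centre or other gene sets, fell to 2371 in the 50% of peaks with the highest scores and 1959 at a fold enrichment of at least 10, and to 2 at an FDR of at most 1%, which removes nearly all peaks of the list. All transcripts of protein-coding genes as starts, an alternative added after seeing the data, gave 4902. All annotated genes as the reference kept 4010 of the 4931. The median fold enrichment, 8.71, was 13.4 in the peaks with the highest scores. The median of 70 reads per peak was 58.0 as reads per kb of length. Strict X-boxes, present in 8.03% of distal peaks, were present in 6.45% with windows of 100 bp, 5.78% around the peak centre, 48.9% with the relaxed pattern, 12.2% with a palindrome (GTNNCC, 0 to 3 bases, GGNNAC), 10.6% at a fold enrichment of at least 10 and 50% of the 2 peaks at an FDR of at most 1%. Among the distal peaks in the 50% of peaks with the highest scores, the share was 8.4%. Over all distal peaks, without windows that hold the most frequent X-box, it was 6.43%, an alternative chosen after seeing the data. The density of 8.18 peaks per Mb was 8.81 on autosomes. Counting either flanking gene, 20.9% in place of 13.1% of protein-coding genes were next to a distal peak. For the lists this gave 16 in place of 10 islet factor genes, 12 in place of 7 granule genes and 6 in place of 3 genes of other tissues, and with the highest scores 4 granule genes remained. The 1 library limits all values to counting error.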
